A study of Mus musculus with 4 samples.

Results

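The genes described here belong to the transforming growth factor-β (TGF-β) system and were followed across the cells of HER2+ H605 mammary tumours: the ligands Tgfb1, Tgfb2 and Tgfb3, the receptors Tgfbr1, Tgfbr2 and Tgfbr3, the activating integrin subunit Itgb8, the induced matrix gene Tgfbi and the feedback inhibitor Smad7. They were chosen by symbol and are 9 of the 31053 mouse genes in the deposited matrices. H605 cells are HER2+ mouse mammary tumour cells. The hosts were FVB/NJ mice, listed as 6 to 8 weeks old and either WT or IL1α-/-, and each received 2000000 of these cells in a mammary pad. Tumours were taken on day 14, digested, enriched for live cells and profiled by droplet single-cell RNA sequencing of transcript 3′ ends. There were 2 libraries per host genotype, from 2 pairs of tumours collected on different days. The injected cells were the same in both groups, so the difference in genotype lies in the host. The labels do not say how many mice stand behind a library.

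TGF-β is made as a latent complex that is stored on matrix or on cell surfaces until integrins, proteases or thrombospondin release it. The freed ligand binds TGFBR2, which recruits TGFBR1, and this pair phosphorylates SMAD proteins that enter the nucleus. In tumours TGF-β is known as a restraint on cytotoxic lymphocytes, a stimulus for fibroblasts and a support of regulatory T cells.

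Cells were assigned to classes by marker genes, none of which is a member of this set. Of 14127 called cells, 12571 (89.0%) entered a class, 441 carried markers of 2 classes, 448 lymphocytes could not be resolved into T or NK and 667 had too few markers. The class sizes, in the order WT replicates 1 and 2 and IL1α-/- replicates 1 and 2, were 1293, 1324, 1572 and 1779 T cells, 829, 865, 452 and 365 natural killer (NK) cells, and 386, 691, 158 and 381 mononuclear phagocytes. There were also 161, 82, 89 and 71 plasmacytoid dendritic cells and 342, 210, 287 and 252 fibroblasts. Tumour epithelial cells numbered 364 and 225 in the WT libraries but 26 and 3 in the IL1α-/- libraries, too few for a genotype comparison. Cells at the minimum of 2 markers made up 7.32% of T cells, 15.6% of NK cells, 6.99% of phagocytes, 0.993% of plasmacytoid dendritic cells, 0.642% of fibroblasts and 12.3% of tumour cells. Each class was led by its own markers: the 9 fibroblast markers together stood at 42279 to 71228 CPM in fibroblasts and 20.7 to 43.9 CPM in T and NK cells. CPM here are UMIs (unique molecular identifiers, 1 per captured transcript) per 1000000 UMIs summed over the cells of a class in 1 library.

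Total depth was 23464120 and 29001333 UMIs in the WT libraries and 6705368 and 15298532 in the IL1α-/- libraries, with median UMIs per cell of 3093, 4160, 1348 and 2884, so IL1α-/- replicate 1 was the shallowest. Il1a, the deleted gene, had 65 and 109 UMIs in WT cells and 1 and 0 in IL1α-/- cells. Pairs of libraries shared 0 to 5 cell barcodes. Levels below are in CPM. They count 3′ ends, so they were compared between cells and not between genes.

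Tgfbr1, the signalling receptor gene, lies on chromosome 4 from 47353222 to 47414931 on the plus strand of GRCm38, and is protein coding. The 250 bases before its start, chr4:47352972-47353221, are shown because the lower T cell level of Tgfbr1 in IL1α-/- hosts, described below, kept its call under each of 12 other ways of processing the data. Capitals mark GC boxes (GGGCGG) and CCAAT boxes, read on either strand.
Tgfbr1 promoter: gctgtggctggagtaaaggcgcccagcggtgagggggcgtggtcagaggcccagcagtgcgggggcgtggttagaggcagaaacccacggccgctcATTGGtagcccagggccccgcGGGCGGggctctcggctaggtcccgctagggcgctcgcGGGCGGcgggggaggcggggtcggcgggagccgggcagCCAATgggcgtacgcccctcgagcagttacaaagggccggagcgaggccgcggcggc
The sequence and its build, GRCm38.p6, come from RefSeq, and 6 of the 9 members matched an entry there. The window held 2 GC boxes and 2 CCAAT boxes, motifs found in 32.7% and 33.8% of 32851 promoter windows of the same length. It held no TATAAA, no AP-1 motif TGANTCA and no SMAD palindrome GTCTAGAC, which occurred in 12.4%, 6.75% and 0.167% of windows. Its GC content was 74.8%, against a median of 52.4% over all windows. These are matches of letters and not evidence of binding.

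The 3 ligands were divided between the leukocyte classes and the fibroblasts. Tgfb1, the ligand best known from leukocytes, was found at 221, 241, 305 and 220.4 CPM in T cells (order of libraries as above). It was at 268, 364, 406 and 243 in NK cells, and at 292, 278, 283 and 249.9 in phagocytes. It was at 186, 157, 161 and 88.4 in plasmacytoid dendritic cells and at 26.7, 47.0, 16.0 and 22.2 in fibroblasts. Every value in these 4 leukocyte classes lay above every fibroblast value. Endothelial cells, too few to test (15, 7, 0 and 8 cells), held Tgfb1 at a mean of 326 CPM in the WT libraries, from 17 UMIs. Tested against the mean of the other 4 classes in 1 fit with library as a block, Tgfb1 was higher in NK cells (log2 difference 1.13 ± 0.15 SE), phagocytes (1.10 ± 0.15) and T cells (0.78 ± 0.15) and lower in fibroblasts (-2.83 ± 0.21; edgeR's quasi-likelihood test, largest Benjamini-Hochberg adjusted p = 2.04e-04, for T cells). T cells, NK cells and phagocytes did not differ from each other by that test, with pairwise log2 differences of -0.28 ± 0.20, -0.25 ± 0.20 and 0.03 ± 0.20 (SE), in contrasts where 16.4%, 57.5% and 54.8% of all genes passed. Plasmacytoid dendritic cells were lower than each of these 3 classes, by 0.78 to 1.06 on the log2 scale, where 43.8%, 42.1% and 42.8% of genes passed.

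Tgfb2 and Tgfb3, ligands of mesenchyme and epithelium, showed the opposite order. Tgfb2 was at 56.2, 39.0, 128 and 41.8 CPM in fibroblasts, while T cells, NK cells, phagocytes and plasmacytoid dendritic cells held 2, 2, 5 and 4 UMIs in all 4 libraries together. Tgfb3 was at 24.8, 50.0, 19.4 and 26.5 in fibroblasts and at 0 to 11.1 in those leukocytes. The fibroblast ranges did not overlap those of the leukocytes for either gene. The log2 difference of fibroblasts from the other classes was 6.92 ± 0.28 for Tgfb2 and 3.70 ± 0.29 for Tgfb3 (SE, edgeR's quasi-likelihood test, adjusted p = 4.26e-15 and 3.61e-10). In fibroblasts 7 of the 9 members differed from the other classes, where 65.6% of all genes did.

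Tumour epithelial cells carried the same pair of ligands. In the WT libraries, Tgfb2 was at 45.8 and 42.3 CPM in tumour cells and Tgfb3 at 75.6 and 53.8, while Tgfb1 was at 15.04 and 12.3. A fit on the WT libraries alone with 8 classes set tumour cells against fibroblasts, a contrast in which 47.6% of all genes passed the test. Tumour cells did not differ there in Tgfb2 (log2 difference -0.32 ± 0.30, adjusted p = 0.408) or Tgfb3 (0.61 ± 0.32, adjusted p = 0.125), and were lower in Tgfb1 (-1.65 ± 0.28, adjusted p = 8.19e-05; SE, edgeR's quasi-likelihood test). In the plot of levels by class, the points for Tgfb2 and Tgfb3 stand in the fibroblast and tumour columns, and those for Tgfb1 in the leukocyte columns.

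**Figure D1:**
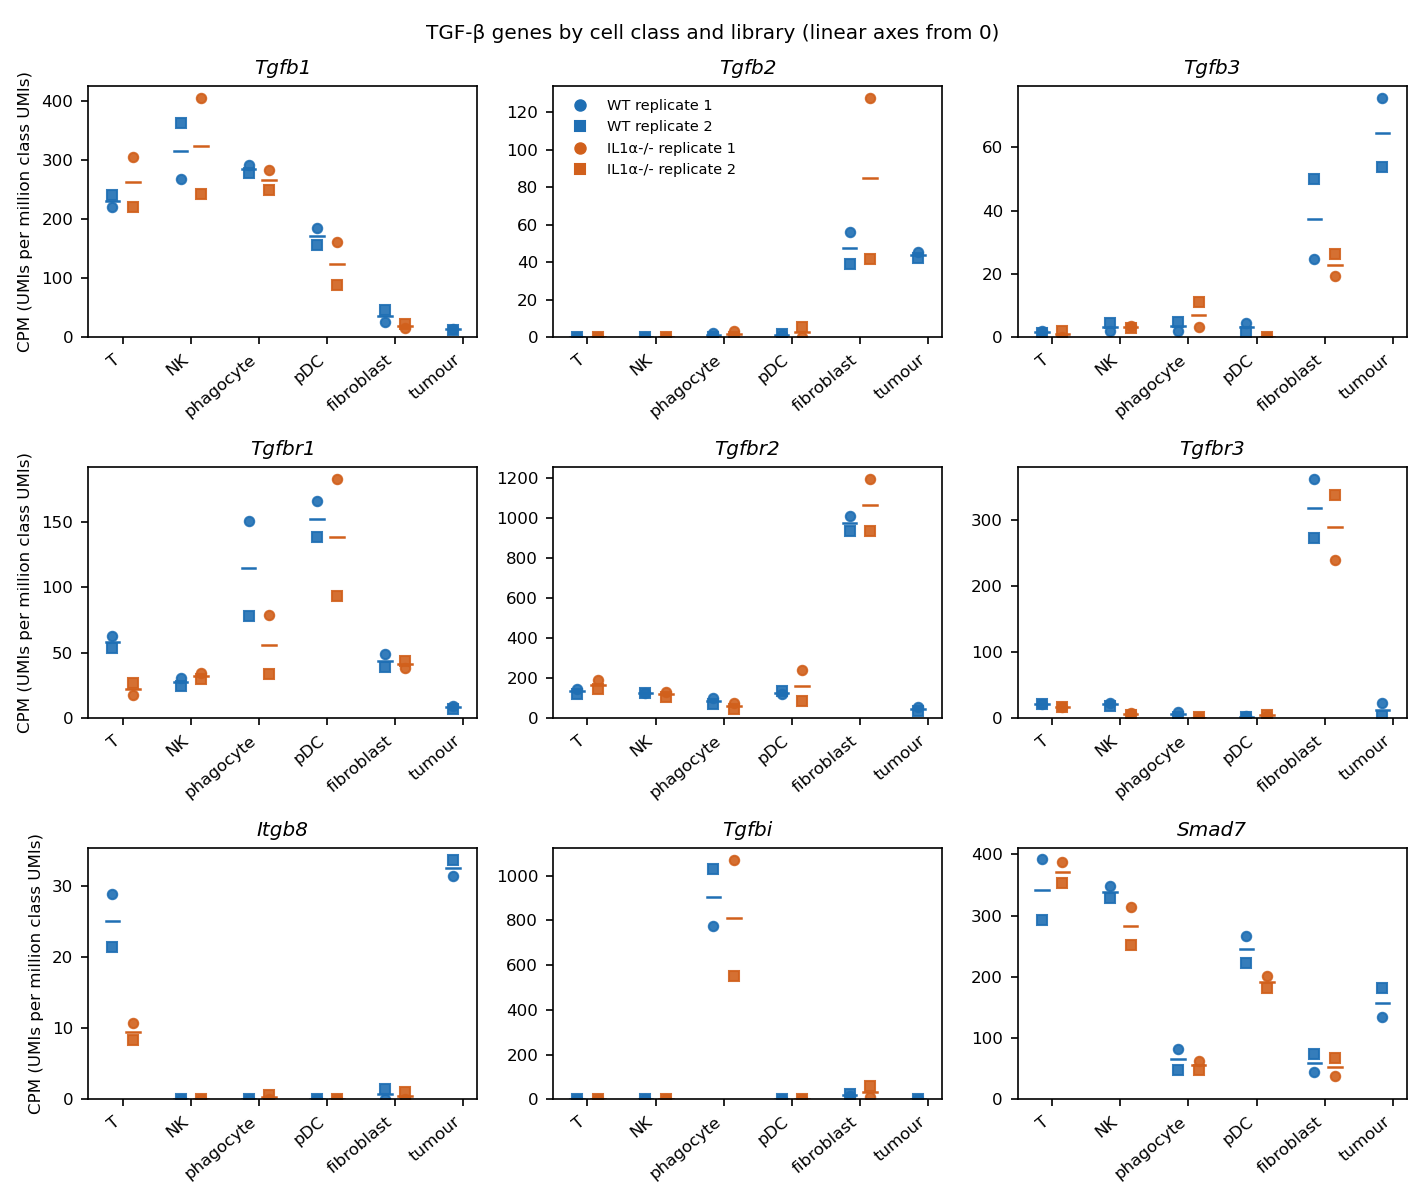
Level of each of the 9 genes (CPM, linear axis from 0) in 5 classes of both host genotypes and in tumour cells of the WT libraries; each point is 1 library and each bar the mean of 2. Tgfb2 in fibroblasts runs from 39.0 to 128, with IL1α-/- replicate 1 above the other libraries, and Tgfbr1 in T cells separates the WT libraries (54.1 and 62.7) from the IL1α-/- libraries (18.0 and 26.8).

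The receptors each had their own distribution. TGFBR2, the ligand-binding receptor, was encoded at 1014, 939, 1199 and 936 CPM in fibroblasts. Tgfbr2 ranged from 122 to 193 in T cells, 109 to 131 in NK cells, 49.1 to 101 in phagocytes and 88.4 to 240.0 in plasmacytoid dendritic cells. TGFBR3, or betaglycan, is a coreceptor that presents TGF-β2 to the signalling pair. Tgfbr3 was at 362, 273, 239 and 338 in fibroblasts and at no more than 24.0 in any library of T cells, NK cells, phagocytes or plasmacytoid dendritic cells. Fibroblasts exceeded the other classes by 3.31 ± 0.11 for Tgfbr2 and 5.47 ± 0.19 for Tgfbr3 on the log2 scale (SE, edgeR's quasi-likelihood test, adjusted p = 2.23e-16 and 2.14e-16). WT tumour cells were at 54.9 and 36.3 for Tgfbr2, lower than fibroblasts by 4.66 ± 0.27 on the log2 scale (SE), and at 22.9 and 3.92 for Tgfbr3.

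Tgfbr1 encodes the kinase that carries the signal. It was at 166, 139, 183 and 93.8 CPM in plasmacytoid dendritic cells and at 151, 78.5, 78.7 and 33.8 in phagocytes. Fibroblasts (38.8 to 49.1), T cells (18.0 to 62.7) and NK cells (24.5 to 34.9) followed, and WT tumour cells were at 9.37 and 7.31. Against the other classes Tgfbr1 was higher in plasmacytoid dendritic cells (log2 difference 1.56 ± 0.24) and in phagocytes (0.72 ± 0.22; SE, edgeR's quasi-likelihood test, adjusted p = 1.52e-05 and 0.00974). The neighbours in this order did not all differ: phagocytes against plasmacytoid dendritic cells gave an adjusted p of 0.0696, T cells against fibroblasts 0.298, where 69.1% of genes passed, and T cells against NK cells 0.235 by the same test. Without WT replicate 1 the phagocyte difference was 0.41 with an adjusted p of 0.226.

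Itgb8, the β8 chain that pairs with αv to release TGF-β from its latent complex, was detected in few classes. T cells held 122, 145, 28 and 58 Itgb8 UMIs, NK cells and plasmacytoid dendritic cells 0 in every library, phagocytes 1 and fibroblasts 6 in all. With 0 of 9137152 UMIs in NK cells, a limit of 3 counts over the class puts T cells at least 52.3-fold higher, and for plasmacytoid dendritic cells at least 11.7-fold higher. WT tumour cells held Itgb8 at 31.4 and 33.7 CPM, which did not differ from WT T cells at 28.8 and 21.4 (log2 difference 0.32 ± 0.32 SE, edgeR's quasi-likelihood test, adjusted p = 0.421, where 55.7% of genes passed). The WT tumours thus held Itgb8 RNA in both tumour cells and T cells.

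Tgfbi and Smad7 are both induced by TGF-β signalling, and they marked different cells. Tgfbi, a secreted matrix protein gene, was at 777, 1032, 1070.3 and 552 CPM in phagocytes, at 10.3 to 57.7 in fibroblasts and at no more than 3.44 in T, NK and plasmacytoid dendritic cells. WT neutrophils were also high, at 552 and 555, which was below phagocytes (log2 difference 1.19 ± 0.24 SE, edgeR's quasi-likelihood test, adjusted p = 0.00131, where 21.2% of genes passed). WT tumour cells were at 0.872 and 1.83. Smad7, which blocks and degrades TGFBR1, was at 392, 292, 388 and 353 in T cells, 349, 329, 314 and 252 in NK cells and 267, 222, 201 and 182 in plasmacytoid dendritic cells. It was at 48.5 to 82.9 in phagocytes and 37.6 to 73.5 in fibroblasts, below every lymphocyte value, and at 134 and 181 in WT tumour cells. Against the other classes the log2 difference was 8.13 ± 0.26 for Tgfbi in phagocytes, 1.49 ± 0.14 for Smad7 in T cells and 1.16 ± 0.14 for Smad7 in NK cells (SE, edgeR's quasi-likelihood test, largest adjusted p = 9.24e-07).

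Across these contrasts of 1 class with the other 4, the number of members that passed the test was 8 of 9 in T cells, 6 in NK cells, 6 in phagocytes and 5 in plasmacytoid dendritic cells. The background was high, with 50.5%, 47.5%, 49.2% and 41.6% of all 11258 genes passing.

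The comparison of IL1α-/- with WT hosts asks how host IL-1α bears on each cell class of the tumour. It found members lower in lymphocytes and none that passed the test elsewhere. In T cells, 2 of the 7 members with enough UMIs to test fell, Tgfbr1 and Itgb8, where 3.21% of all 10553 genes passed and 1.47% passed as lower. The median log2 fold change was -0.26 over those 7 and -0.01 over all genes. The median of the 7 was the value of Tgfb3 (± 0.82 SE), which had 17 UMIs in WT and 13 in IL1α-/- libraries. Tgfb1, Tgfbr2 and Smad7 had positive values, and Tgfbr1, Itgb8 and Tgfbr3 negative ones.

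T cell Tgfbr1 had 265 and 366 UMIs in the WT libraries and 47 and 186 in the IL1α-/- libraries, or 62.7 and 54.1 against 18.0 and 26.8 CPM. Both IL1α-/- libraries lay below both WT libraries. The mean fell from 58.4 ± 6.07 to 22.4 ± 6.24 (SD over n = 2 libraries each), with a log2 change of -1.29 ± 0.23 (SE, edgeR's quasi-likelihood test, adjusted p = 0.0281). With each cell thinned to 1000 UMIs, 6.05% and 4.17% of WT T cells and 1.85% and 3.14% of IL1α-/- T cells had a Tgfbr1 UMI, against 15.1%, 18.8%, 2.93% and 9.22% without thinning. With 2 libraries a group, an exact permutation test of such shares cannot go below p = 0.333. Tgfbr1 in the free RNA of near-empty droplets was 35.7 and 39.6 CPM in WT and 24.2 and 17.2 in IL1α-/- libraries, and its part in the T cell difference was not tested. The 8 markers of plasmacytoid dendritic cells, the class with the highest Tgfbr1, stood in T cells at 0.604% and 0.728% of their own-class level in WT and 0.342% and 0.286% in IL1α-/- libraries, while Tgfbr1 in T cells stood at 37.7%, 39.0%, 9.82% and 28.6% of its level there. The 13 phagocyte markers stood in T cells at 1.58%, 1.92%, 2.74% and 7.11% of their own-class level. The 8 NK cell markers summed to 549 and 663 CPM in WT T cells and 309 and 164 CPM in IL1α-/- T cells, against 3006 to 4101 CPM in NK cells, and their part in the Tgfbr1 difference was not tested.

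T cell Itgb8 was at 28.8 and 21.4 CPM in WT and 10.7 and 8.36 in IL1α-/- libraries, again without overlap. Its mean fell from 25.1 ± 5.25 to 9.54 ± 1.67 (SD over n = 2 libraries each), with a log2 change of -1.38 ± 0.26 (SE, edgeR's quasi-likelihood test, adjusted p = 0.0346). Without WT replicate 1 the value was -1.17 with an adjusted p of 0.0927. The share of T cells with an Itgb8 UMI after thinning was 2.63% and 1.62% in WT and 1.01% and 0.755% in IL1α-/- libraries, against 0 of 804, 848, 296 and 342 NK cells. T cells had median depths of 2648, 3925, 1365 and 2848 UMIs and NK cells of 3301, 4309, 1169 and 2531. The 9 tumour markers, from the other Itgb8 source, were in WT T cells at 0.608% and 0.218% of their level in tumour cells, while Itgb8 was at 91.9% and 63.6% of its level there.

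The other ligands and receptors of T cells did not pass the test. Tgfbr2 was at 148 and 122 CPM in WT and 193 and 146 in IL1α-/- libraries (log2 fold change 0.37 ± 0.20), Tgfbr3 at 21.0 and 21.6 against 17.2 and 16.9 (-0.28 ± 0.21), Tgfb1 at 0.22 ± 0.21 and Smad7 at 0.16 ± 0.20 on the log2 scale (SE). The IL1α-/- libraries overlapped the WT libraries for Tgfbr2, Tgfb1 and Smad7.

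**Figure D2:**
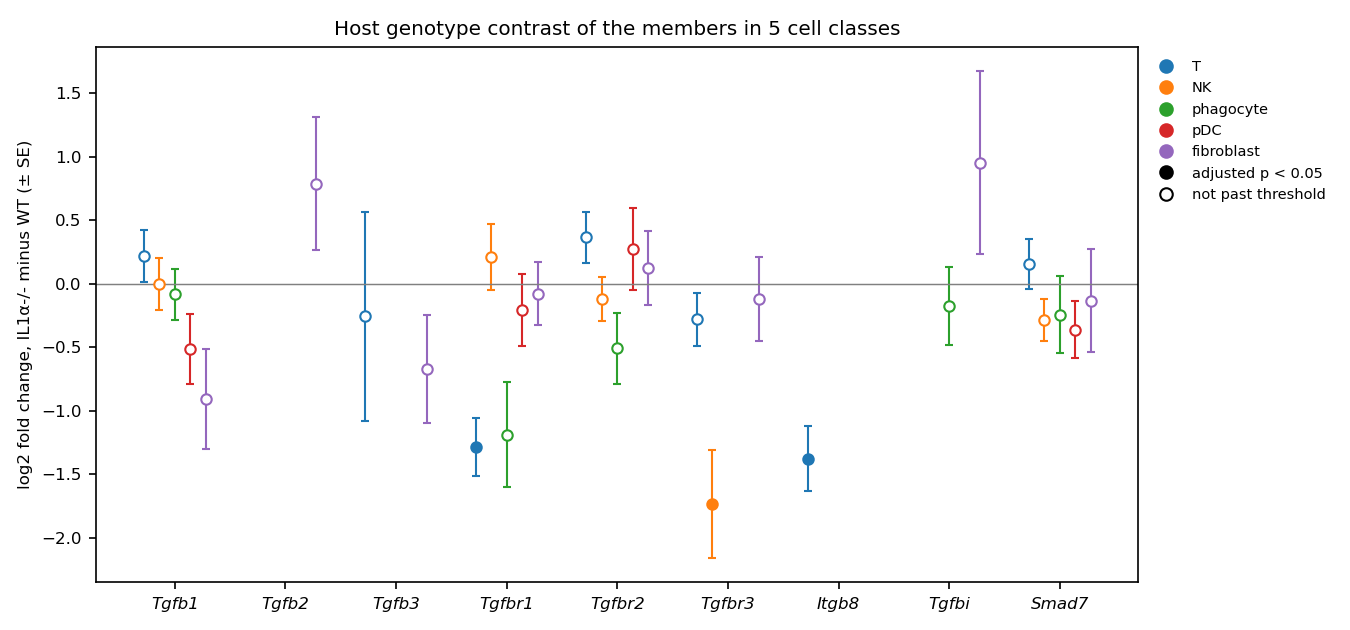
Log2 fold change of IL1α-/- against WT (edgeR's quasi-likelihood fit, bars ± SE, 2 libraries a group) for each member that had enough UMIs to test in a class. Filled points pass an adjusted p of 0.05: Tgfbr1 (-1.29) and Itgb8 (-1.38) in T cells and Tgfbr3 (-1.74) in NK cells; the phagocyte value of Tgfbr1 (-1.19) does not.

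T cells were then divided by Cd4, Cd8a, Cd8b1 and Foxp3 UMIs. Foxp3 T cells, the regulatory subset, were 15.4% and 17.0% of WT T cells and 2.42% and 5.79% of IL1α-/- T cells (199, 225, 38 and 103 cells). Cells with a Cd8 UMI and no Cd4 or Foxp3 UMI, taken as CD8 T cells, were 10.8% and 18.4% against 52.7% and 43.2%. Cells with both Cd4 and Cd8 UMIs but no Foxp3 UMI were in no subdivision. The composition of the class differed between hosts in these libraries, also between WT replicate 1 and IL1α-/- replicate 2, whose T cells had median depths of 2648 and 2848 UMIs.

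Itgb8 was concentrated in Foxp3 T cells. It was at 109.5, 65.2, 75.7 and 56.9 CPM there, at 16.3, 18.6, 31.8 and 6.23 in CD4 T cells without Foxp3 and at 3.61, 3.02, 4.90 and 1.25 in CD8 T cells. Foxp3 T cells held 63.9% and 64.1% of all T cell Itgb8 UMIs in WT and 21.4% and 43.1% in IL1α-/- libraries. Within Foxp3 T cells the host genotypes overlapped, with a log2 fold change of -0.47 ± 0.38 (SE, edgeR's quasi-likelihood test, adjusted p = 0.762, where 0.239% of genes passed). The 4 T cell subdivisions were then weighted equally in every library. Itgb8 stood at 35.7 and 23.5 in WT and 31.4 and 18.2 in IL1α-/- libraries, which overlapped (log2 ratio -0.26, exact permutation p = 0.667, two-sided). Behind the value of IL1α-/- replicate 1 were 6 Itgb8 UMIs in Foxp3 T cells and 5 in CD4 T cells without Foxp3. The part of the lower share of Foxp3 T cells in the T cell Itgb8 difference was not tested. The 9 tumour markers summed to 140, 51.9, 63.1 and 36.4 CPM in Foxp3 T cells, against 6495 and 11122 in WT tumour cells. They were at 14.4, 18.9, 4.90 and 3.74 in CD8 T cells and 14.2, 9.29, 0 and 3.74 in CD4 T cells without Foxp3. Their part in the Itgb8 values was not tested.

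Tgfbr1 was also highest in Foxp3 T cells, at 125 and 94.6 in WT and 50.5 and 70.6 in IL1α-/- libraries. Within each subdivision both IL1α-/- libraries lay below both WT libraries. The values of IL1α-/- replicate 1 rest on 4 Tgfbr1 UMIs in Foxp3 T cells and 5 in CD4 T cells without Foxp3. The share of all genes without such overlap was not counted. CD8 T cells were at 50.5 and 44.6 against 12.2 and 20.2, and the log2 fold change of -1.53 ± 0.33 passed the test (SE, edgeR's quasi-likelihood test, adjusted p = 0.0431). That made 1 of 5 members tested in CD8 T cells, where 2.05% of genes, or 173, passed, a number that was 4 to 666 with 1 library left out. CD4 T cells without Foxp3 were at 42.7 and 49.6 against 31.8 and 27.4 (-0.71 ± 0.34, adjusted p = 0.27), in a contrast in which 4.15% of genes passed. Foxp3 T cells gave -0.70 ± 0.33 (SE) with an adjusted p of 0.557 by the same test. T cells with no Cd4, Cd8 or Foxp3 UMI were at 53.4 and 38.7 against 26.0 and 32.5. With the subdivisions weighted equally Tgfbr1 was at 67.9 and 56.9 in WT and 30.1 and 37.7 in IL1α-/- libraries, without overlap. The log2 ratio was -0.88 (exact permutation p = 0.333, two-sided, the smallest the design allows). The part of T cell makeup, between or within the subdivisions, in the Tgfbr1 difference was not tested. The CD8 call did not hold without WT replicate 1 (adjusted p = 0.325), without WT replicate 2 (0.343) or with DESeq2 (0.0529), all at log2 fold changes between -1.64 and -1.46.

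**Figure D3:**
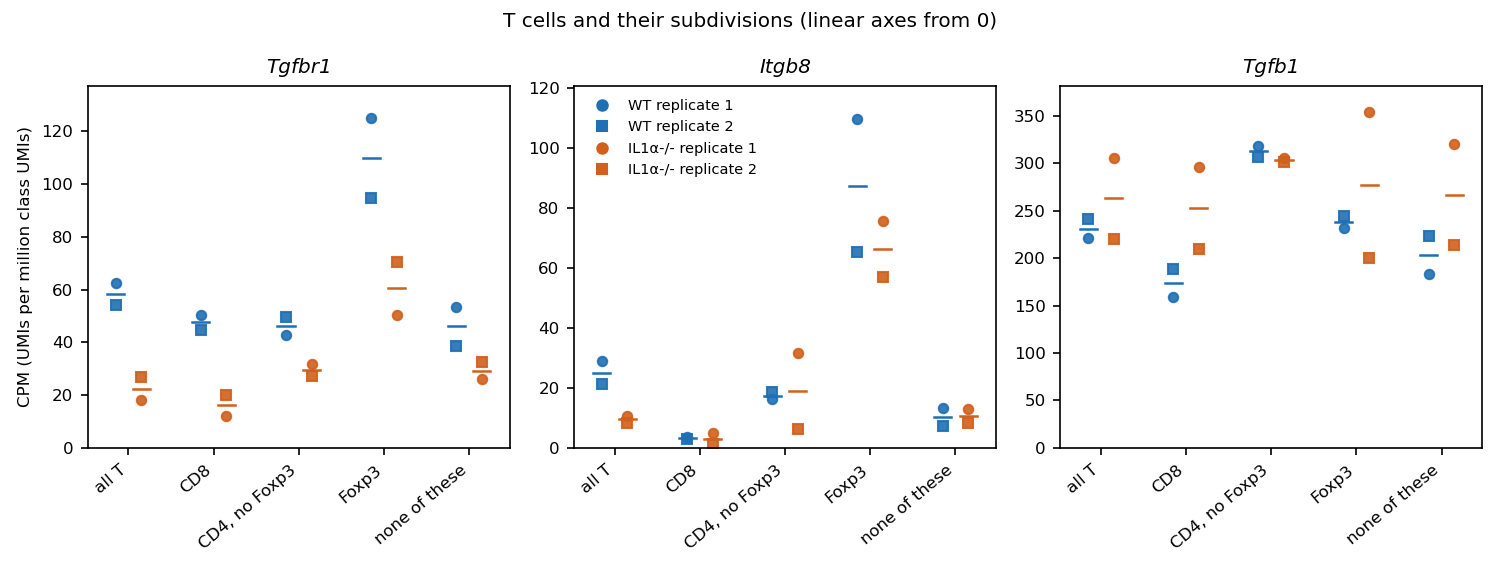
Levels of Tgfbr1, Itgb8 and Tgfb1 (CPM, linear axis from 0) in all T cells and in 4 subdivisions; each point is 1 library and each bar the mean of 2. Tgfbr1 is lower in the IL1α-/- libraries in each subdivision, Itgb8 is highest in Foxp3 T cells of both hosts (56.9 to 109.5), and Tgfb1 overlaps between hosts in all T cells.

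In NK cells 1 of 5 members tested fell, the coreceptor Tgfbr3, where 14% of all genes passed and 5.87% passed as lower. NK cells held 77 and 80 Tgfbr3 UMIs in WT and 5 and 5 in IL1α-/- libraries, or 24.0 and 18.5 against 8.72 and 4.90 CPM. The mean fell from 21.2 ± 3.87 to 6.81 ± 2.70 (SD over n = 2 libraries each), with a log2 change of -1.74 ± 0.42 (SE, edgeR's quasi-likelihood test, adjusted p = 0.00902). Without IL1α-/- replicate 2 the value was -1.30 with an adjusted p of 0.134, and the call rests on 5 UMIs in each IL1α-/- library. The share of NK cells with a Tgfbr3 UMI after thinning was 2.74% and 1.65% in WT and 0.676% and 0.877% in IL1α-/- libraries (8.56%, 7.98%, 1.11% and 1.37% without thinning). In phagocytes, with median depths of 3835, 4159, 1700 and 3442 UMIs, the thinned share was 1.75%, 0.531%, 0% and 0.588%. Both IL1α-/- NK libraries and WT replicate 2 lay within that range, and WT replicate 1 lay above it. The 9 fibroblast markers stood in NK cells at 0.0335% to 0.0699% of their fibroblast level, while Tgfbr3 in NK cells stood at 6.62% and 6.78% of its fibroblast level in WT and 3.64% and 1.45% in IL1α-/- libraries.

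NK cell Tgfbr1 was at 31.1 and 24.5 in WT and 34.9 and 30.4 in IL1α-/- libraries (log2 fold change 0.21 ± 0.26 SE), with overlap. The genotype effect on Tgfbr1 was 1.50 ± 0.44 (SE) lower in T cells than in NK cells on the log2 scale, which did not pass edgeR's quasi-likelihood test of that difference (adjusted p = 0.253, 0.151% of genes passed). Of all genes, 0.24% passed for T cells against phagocytes, 0.00888% against plasmacytoid dendritic cells and 0.311% against fibroblasts. The shares were 0.178%, 0% and 0.0355% for NK cells against these 3 classes, 0.0355% and 0.24% for phagocytes against plasmacytoid dendritic cells and fibroblasts, and 0.0266% for the last pair. No member passed such a test in any of the 10 pairs of classes, so effects called in 1 class were not shown to differ from those in another.

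In phagocytes, which the study's title names through monocyte-to-macrophage differentiation, 0 of 5 members passed, and 0.102% of 8841 genes did. The unadjusted p was under 0.05 for 1 member, Tgfbr1, at 151 and 78.5 CPM in WT and 78.7 and 33.8 in IL1α-/- libraries (log2 fold change -1.19 ± 0.42 SE, edgeR's quasi-likelihood test, adjusted p = 0.265). WT replicate 2 and IL1α-/- replicate 1 were level. With the replicate block the value was -1.07 and passed the same test (adjusted p = 0.0272), as did -1.23 without a filter on low counts (adjusted p = 0.00296). Tgfbi was at 777 and 1032 against 1070.3 and 552 (-0.18 ± 0.31), with IL1α-/- libraries both highest and lowest. Tgfb1 differed by -0.08 ± 0.20, Tgfbr2 by -0.51 ± 0.28 and Smad7 by -0.24 ± 0.30 on the log2 scale (SE).

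Phagocytes with UMIs of at least 2 of C1qa, C1qb and C1qc, complement genes of macrophages, were taken as C1q phagocytes. They were 57.8% and 58.5% of WT and 26.6% and 32.0% of IL1α-/- phagocytes. Those with Ly6c2, a monocyte gene, and no C1q UMI were 12.4% and 13.0% against 26.6% and 19.2%. Phagocytes with UMIs of only 1 of the C1q genes were in neither group. Tgfbr1 was at 203, 89.3, 118 and 35.0 in C1q phagocytes and 83.2, 41.9, 13.8 and 39.5 in Ly6c2 phagocytes, where the value of IL1α-/- replicate 1 rests on 1 UMI in 42 cells. In C1q phagocytes its log2 fold change was -1.33 ± 0.57 (SE, edgeR's quasi-likelihood test, adjusted p = 0.427), where 0% of genes passed. Without WT replicate 2 it was -1.76 with an adjusted p of 0.011 and 214 genes passed, and with 1 other library left out it lay between -1.96 and -0.46. Tgfbi in Ly6c2 phagocytes was at 672 and 1118 in WT and 567 and 612 in IL1α-/- libraries (-0.62 ± 0.30 SE, adjusted p = 0.646, 0.0296% of genes passed, same test). The part of this change in phagocyte makeup in the Tgfbr1 values was not tested.

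In plasmacytoid dendritic cells 0 of 4 members passed (2.1% of genes did), with Tgfb1 at 186 and 157 in WT and 161 and 88.4 in IL1α-/- libraries (log2 fold change -0.51 ± 0.28 SE). In fibroblasts 0 of 8 members and 0% of 9865 genes passed edgeR's quasi-likelihood test, while 502 genes and none of the members had an unadjusted p under 0.05, and DESeq2 called 11 genes. Fibroblast Tgfb1 was at 26.7 and 47.0 against 16.0 and 22.2 (-0.91 ± 0.39 SE, adjusted p = 0.843). Fibroblast Tgfb2 was at 56.2 and 39.0 against 128 and 41.8 (0.79 ± 0.52), a difference that rested on IL1α-/- replicate 1 and was -0.13 without it. Fibroblast Tgfb3 gave -0.68 ± 0.43 and Tgfbr2 0.13 ± 0.29 (SE).

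A further 46 genes of the pathway were listed in 6 roles. In NK cells 5 of 25 tested rose and none fell, where 8.12% of all genes passed as higher and 5.87% as lower: Tgif1, Furin, Bambi, Itgb3 and Skil. Tgif1, a corepressor of SMAD-driven transcription, rose from 89.3 and 67.5 to 214 and 163 CPM (log2 fold change 1.24 ± 0.18 SE, edgeR's quasi-likelihood test, adjusted p = 1.16e-04). Skil, another SMAD corepressor, rose by 0.49 ± 0.16, and Bambi, a receptor decoy without a kinase, by 1.08 ± 0.26. Furin, the protease that cuts the TGF-β precursor, rose by 0.87 ± 0.21 and the integrin subunit Itgb3 by 0.81 ± 0.26 (log2, SE, adjusted p from 0.00824 to 0.0487, same test). DESeq2 called 2 of these 25 genes, both higher. The lack of falls depended on the setting. With 1 more marker needed per cell, 3 of 24 rose and 1 fell, and without a filter on low counts 4 of 43 rose and 2 fell.

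Tgif1 passed the test in other classes as well. In plasmacytoid dendritic cells it was the only one of 13 genes tested that passed, where 1.68% of all genes passed as higher, rising from 8.02 and 5.34 to 56.7 and 40.2 (log2 fold change 2.72 ± 0.51 SE, adjusted p = 0.00669, edgeR's quasi-likelihood test). No pathway gene passed there with DESeq2 or when any 1 of the 4 libraries was left out. In CD4 T cells without Foxp3 it rose by 1.54 ± 0.30 (adjusted p = 0.00429) and Skil by 0.97 ± 0.23 (adjusted p = 0.0186, SE, same test). In all T cells Tgif1 was at 144 and 67.8 against 213 and 203 (adjusted p = 0.11), and in phagocytes at 102 and 70.9 against 280 and 190 (adjusted p = 0.0644). Its values did not overlap between hosts in T cells, NK cells, phagocytes or plasmacytoid dendritic cells, and they overlapped in fibroblasts. These classes come from the same 4 libraries, and the share of all genes without such overlap was not counted.

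In T cells 1 of 31 pathway genes passed (3.21% of all genes did), a share near the background. It was Itgae, the αE chain (CD103) that TGF-β induces on lymphocytes in tissue, which fell from 134 and 79.6 to 28.0 and 23.5 (log2 fold change -2.02 ± 0.26 SE, adjusted p = 0.0118, edgeR's quasi-likelihood test). It also fell in CD4 T cells without Foxp3, by 2.22 ± 0.50 on the log2 scale (SE, adjusted p = 0.0129). In Foxp3 T cells Itgae was at 348 and 185 against 177 and 175 (-0.59 ± 0.34, adjusted p = 0.65), and in CD8 T cells at 112 and 39.3 against 24.5 and 13.7 (-2.01 ± 0.47, adjusted p = 0.0612, SE, same test). The part of the lower share of Foxp3 T cells in the T cell Itgae difference was not tested.

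In phagocytes 1 of 34 passed, where 0.102% of all genes did and 0.0792% passed as higher. It was Thbs1, whose product thrombospondin 1 can release latent TGF-β. It rose from 81.9 and 52.2 to 614 and 645 CPM (log2 fold change 3.27 ± 0.28 SE, edgeR's quasi-likelihood test, adjusted p = 0.00662). The count of pathway genes was 6 of 34 with the replicate block, 4 of 34 without WT replicate 2 and 3 of 34 with DESeq2. Thbs1 lies on chromosome 2, as does Il1a. Pmepa1, a TGF-β-induced feedback inhibitor, was named here after its values were seen. It was at 503 and 201 in WT and 91.3 and 56.5 in IL1α-/- phagocytes (-2.30 ± 0.43 SE, edgeR's quasi-likelihood test, adjusted p = 0.0749). The list as a whole did not fall in phagocytes. The median log2 fold change was 0.15 over 8 inhibitors tested, 1.06 over 4 targets and 0.31 over all 34 pathway genes. In fibroblasts none of 42 passed, and the smallest unadjusted p belonged to Ltbp2, Ppm1a and Timp1, at log2 fold changes of -1.82 ± 0.52, 0.54 ± 0.24 and -2.18 ± 0.96 (SE).

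**Figure D4:**
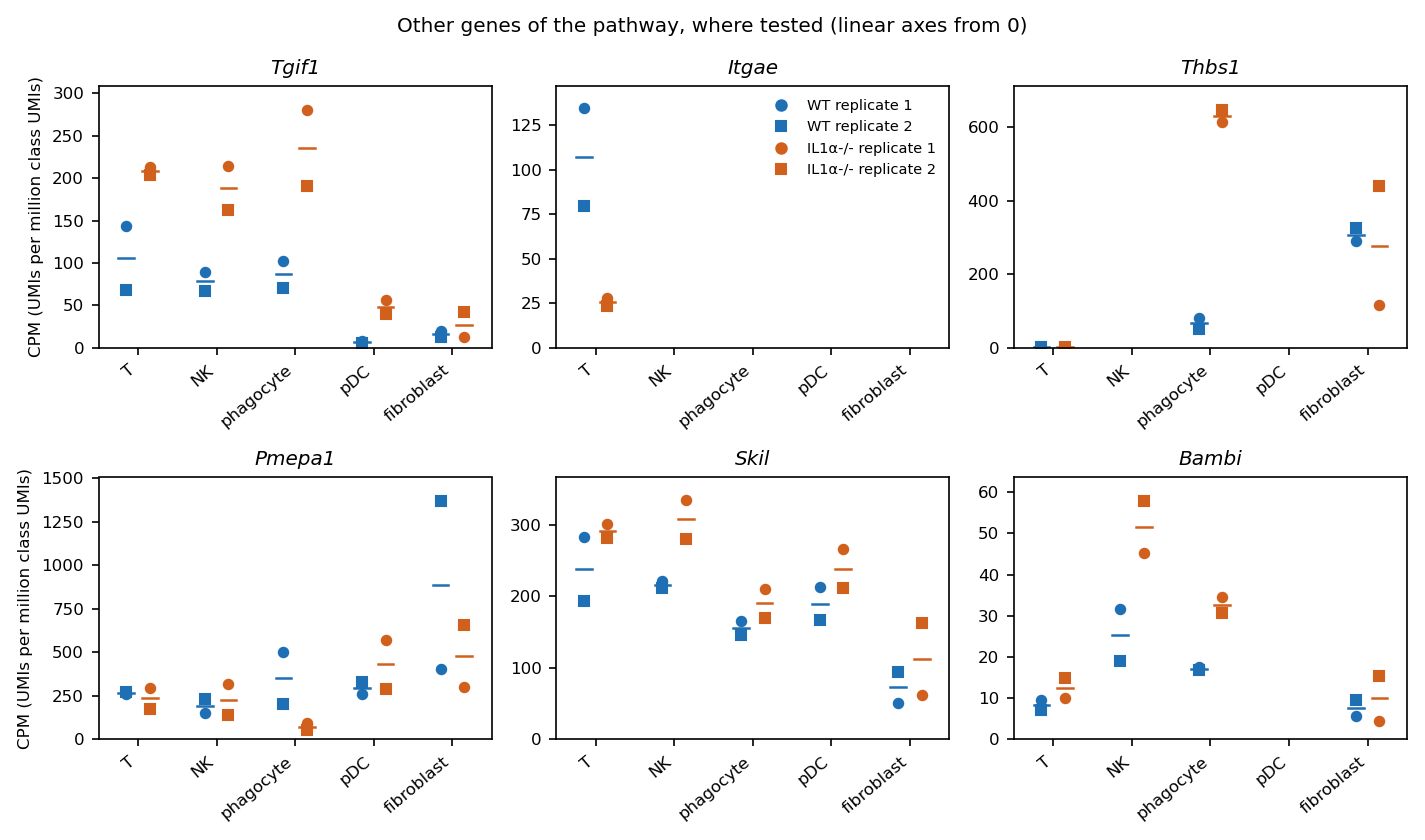
Levels of 6 further pathway genes (CPM, linear axis from 0) in the classes where they were tested; each point is 1 library and each bar the mean of 2. Tgif1 is higher in the IL1α-/- libraries in T, NK, phagocyte and plasmacytoid dendritic classes, without passing the test in T cells or phagocytes. Itgae is lower in T cells (28.0 and 23.5 against 134 and 79.6), and Thbs1 is higher in phagocytes (614 and 645 against 81.9 and 52.2).

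Over the 20 sums of 5 classes in 4 libraries, the genes whose levels ran most nearly in parallel with 8 of the members were listed as a description, from 8498 candidates. Points of 1 library share its depth, and points of 1 class share its cells. For Itgb8 they were Il13, Tnfrsf4 and Foxp3 (Pearson's r = 0.96, 0.95 and 0.94), for Tgfb1 Arhgap9, Tpm3 and Pik3cg (0.97, 0.96 and 0.96) and for Tgfbr1 Cib1, Pdcd2l and Cd2ap (0.89, 0.88 and 0.87). For Tgfb2 they were Ston2, Itga11 and Arhgap29, for Tgfb3 P4ha2, Copz2 and Ltbp3, for Tgfbr2 Arhgef25, Ly6c1 and Dpt, and for Tgfbr3 Nckap1, Angptl4 and Mxra8, with r from 0.89 to 0.97. For Smad7 they were Slain1, Leprotl1 and Saraf (0.97, 0.96 and 0.96). Dpt was among the markers used to assign cells.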

How the data were processed

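The authors' deposited matrices hold raw counts of UMIs for every droplet barcode over human and mouse genes, 1 matrix per library, from Cell Ranger 3.1.0 and mm10 per the submitters' processing notes. Human genes held at most 0.00759% of UMIs and were left out. Barcodes with at least 500 UMIs, 250 genes and at most 20% mitochondrial UMIs were kept. The barcodes with the highest Scrublet scores were removed as doublets, at 0.8% per 1000 cells (83 to 128 per library). No statistical test for empty droplets was applied. A cell took the class with the most detected markers, at least 2 and at least 2 times those of the next class, with T and NK markers counted jointly and then against each other. This rule was set after marker detection had been seen. Free RNA came from barcodes with at most 100 UMIs.

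Counts were summed per class and library and tested with edgeR 4.0.16 (filterByExpr, TMM, quasi-likelihood, Benjamini-Hochberg over all genes tested, threshold 0.05) in classes with at least 20 cells in every library. Class contrasts used 1 fit with library as a block. Each SE of a log2 value from edgeR was derived from the test, as the absolute log2 value divided by the square root of the F statistic. Two-sided exact permutation tests were used for single values. The tests were also run on simulated counts with the same spread between libraries set for every gene and class. That spread was not matched to these data, so the run gives no error rate for them. Alternatives were DESeq2 1.42.0, no filter, a replicate block, deeper cells (at least 1000 UMIs), at most 10% mitochondrial UMIs, no doublet removal, Leiden clusters (scanpy 1.11.5), 1 more marker, and each library left out. The genotype contrasts between all class pairs, the WT fit with 8 classes, the undivided T cells and the equal weighting of T cell subdivisions were added after seeing the data. The members, gene lists and markers were chosen with earlier results of these data known. Named pathway genes were those that passed in a class, at most 10, or the 3 with the smallest p where none passed; genes running in parallel were the 3 with the highest Pearson correlation of log2(CPM + 1), among genes with a mean of at least 10 CPM; those for Tgfbi are not reported here. The labels do not say how many mice stand behind a library, so p-values measure the spread between these libraries, which may be partly technical. The limits from a count of 0 cover counting error only, with 3 counts taken as the limit. The SE and SD printed with values also include the spread between libraries.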

Additional observations from a re-analysis of the deposited data

How the results depend on the processing

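Depth limits these results: IL1α-/- replicate 1 held the fewest UMIs, and Tgfbr3 in NK cells rests on 5 UMIs in each IL1α-/- library. The fall of Tgfbr1 in T cells kept its call under 12 other ways of processing, with log2 fold changes from -1.68 to -1.05 and adjusted p from 3.36e-07 to 0.0448, and with equal weight to the subdivisions it was -0.88. With equal weight, from few UMIs in IL1α-/- replicate 1, Itgb8 in T cells stood at -0.26. It lost its call without WT replicate 1 (-1.17). Tgfbr3 in NK cells lost it without IL1α-/- replicate 2 (-1.30), and DESeq2 gave it no adjusted p (log2 fold change -1.73, unadjusted p = 0.00873), so that DESeq2 called 0 members and 457 genes in NK cells.

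Without a filter on low counts 1199 genes were called in T cells, 522 in phagocytes, 183 in plasmacytoid dendritic cells and 197 in fibroblasts, and 1 member in phagocytes, Tgfbr1 (-1.23). DESeq2 called 91 genes in phagocytes, 44 in plasmacytoid dendritic cells and 11 in fibroblasts; Leiden clusters gave 18 genes in phagocytes and 1 more marker 61. Against these, the numbers were 339, 1278, 9, 118 and 0 genes in T cells, NK cells, phagocytes, plasmacytoid dendritic cells and fibroblasts. Leaving out 1 library, under which the lone library of a group is taken to vary like the others, gave 159 to 817 genes and 1 to 2 members in T cells, 631 to 1043 genes and 0 to 1 members in NK cells, 1 to 156 genes in phagocytes and 1 to 25 in plasmacytoid dendritic cells. In C1q phagocytes it gave 1 to 214 genes and 0 to 1 members, and no filter gave 293 genes and 1 member, against 0 genes. Directions turned for Tgfbi in phagocytes without WT replicate 2 (0.07) or IL1α-/- replicate 2 (0.16), in a range from -0.61 to 0.16. Without IL1α-/- replicate 1 they turned for Tgfb2 in fibroblasts (-0.13, range to 1.42) and Tgfb1 in T cells (-0.00247, range to 0.41). The cause was not tested.

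Same-numbered libraries share only a number in the labels, and their deviations from the group means correlated at 0.13 in T cells, 0.05 in NK cells, 0.03 in phagocytes, 0.08 in plasmacytoid dendritic cells and 0.39 in fibroblasts. With the replicate block 708 genes were called in T cells, 318 genes and 1 member in phagocytes (Tgfbr1, -1.07, adjusted p = 0.0272) and 297 genes in plasmacytoid dendritic cells. Differences in the share of cells with a UMI, IL1α-/- minus WT, moved without thinning from -2.61 to -10.9 percentage points for Tgfbr1 in T cells, -1.24 to -4.82 for Itgb8 in T cells, -1.42 to -7.03 for Tgfbr3 in NK cells and -6.12 to -15.0 for Tgfbr1 in phagocytes, where thinning to 500 UMIs gave -0.643.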
